A study of Mus musculus with 4 samples.

Results

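Catenins are cytoplasmic proteins that hold cadherins, the calcium-dependent adhesion receptors of adherens junctions, to the actin cytoskeleton. 5 genes are described here in splenic Esam dendritic cells (DC) that lost the transcription factor Runx3: the p120-catenin gene Ctnnd1, the delta-catenin gene Ctnnd2, the beta-catenin gene Ctnnb1, the alpha-catenin gene Ctnna1 and the E-cadherin gene Cdh1. They were chosen by name, with the knowledge that Ctnnd1 and Ctnnd2 lay on opposite sides of zero in the comparison of cKO with wt. Their values in that comparison are therefore a description and carry no test. Each gene had 1 probe set (5 of the 35399 in the table). 4 of the 5 genes reached a log2 value of 6.5 on at least 1 array, the limit for signal above background in the study's methods, as did 9894 of 19938 genes with a probe set of their own. Cdh1 did not.

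Esam DC were sorted from spleens of 4 mice of 6 weeks, and RNA of each mouse was hybridised to 1 Affymetrix array. The sort took the Esam population of CD11c and MHC class II positive cells, with stains for Esam, CD4 and CD8 per the labels. The methods name an exon array, whereas the platform annotation that names the probe sets is of a gene-level array, and the limit of 6.5 is taken from those methods. The groups were 2 cKO mice (DCRunx3 -/- per the labels), in which a floxed Runx3 gene was deleted by Cre under the CD11c promoter, and 2 wt littermates (DCRunx3 +/+), with 1 mouse of each genotype in each of 2 litters. Whether the wt littermates carried the floxed alleles without Cre is not stated in the labels, and CD11c is also made by cells other than DC, some macrophages among them. Levels are given as log2 RMA values, a difference is the cKO mean less the wt mean of those values, and ± stands for SD with n = 2. RMA values of different probe sets are not on a common scale, so levels were compared between arrays for 1 gene and not between genes. Sums over marker lists, given further on, take in every listed gene with a probe set, also those below the limit. They are compared only between arrays and are weighted toward bright probe sets.

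The cadherin tail binds p120-catenin close to the membrane, which keeps the cadherin at the cell surface, and binds beta-catenin farther out. Beta-catenin in turn binds alpha-catenin, which reaches actin. Delta-catenin is the nearest relative of p120-catenin in this list and is best known from neurons. Beta-catenin also works in the nucleus: a destruction complex marks it for degradation until a Wnt ligand stops that complex, and the protein left over then acts with TCF and LEF factors on target genes. In DC, E-cadherin is best known from Langerhans cells of the skin and beta-catenin from tolerogenic DC.

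The upstream sequences of the genes with the wide differences are shown so that the starts of the 2 relatives can be set side by side. RefSeq windows (GRCm38.p6) were at hand for 3 of the 5 genes, Ctnnd1, Ctnnd2 and Ctnnb1. The 250 bases before each annotated start are given 5′ to 3′ on the strand of the gene, with CCAAT or its complement ATTGG in capitals.
Ctnnd1, first start (chr2:84658978-84659227, minus strand): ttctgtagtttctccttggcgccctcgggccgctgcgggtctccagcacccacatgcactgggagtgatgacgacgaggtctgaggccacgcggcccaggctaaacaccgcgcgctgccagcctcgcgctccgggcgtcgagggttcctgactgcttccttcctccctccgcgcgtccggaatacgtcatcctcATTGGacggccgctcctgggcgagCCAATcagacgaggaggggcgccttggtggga
Ctnnd1, second start (chr2:84650741-84650990, minus strand): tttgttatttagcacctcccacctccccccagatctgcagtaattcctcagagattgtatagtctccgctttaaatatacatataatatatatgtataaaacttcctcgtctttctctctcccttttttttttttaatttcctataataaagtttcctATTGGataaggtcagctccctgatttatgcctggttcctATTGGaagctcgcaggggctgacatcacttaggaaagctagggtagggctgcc
Ctnnd2 (chr15:30172284-30172533, plus strand): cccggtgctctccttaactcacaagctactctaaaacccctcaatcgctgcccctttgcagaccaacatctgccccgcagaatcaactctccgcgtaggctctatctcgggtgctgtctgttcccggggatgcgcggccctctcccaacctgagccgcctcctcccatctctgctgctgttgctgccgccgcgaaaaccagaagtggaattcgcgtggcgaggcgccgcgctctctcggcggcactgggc

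The first Ctnnd1 window was 66.8% G and C and the second 40%, against 62.8% for Ctnnd2. CCAAT (either strand) occurred in both Ctnnd1 windows and in 1 of Ctnnb1, 3 of the 5 windows of these genes, and in 33.8% of the 32851 windows of all genes. It did not occur in the Ctnnd2 window. The Runx core TGTGGT was in 0 of the 5 windows and in 14% of all, and its second form TGCGGT in 0 of 5 and 5.1%. The TCF/LEF motif ATCAAAG was in 0 of 5 and 3.21%, and the E-box CAGGTG, read by Snail and Zeb repressors, in 0 of 5 and 17.2%. No motif searched contains another. Both strands were searched, and a missing match says only that these letters are not in this window.

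Ctnnd1 was nearly 2-fold higher in cKO and Ctnnd2 about 2-fold lower, with a tight spread inside each genotype. Ctnnd1 was at 7.60 and 7.62 on the cKO arrays, against 6.63 and 6.64 on the wt arrays. Both wt values were close to the limit of 6.5, where a log2 difference understates a change, and the cKO values stood clear of it. The difference was 0.98 (7.61 ± 0.02 in cKO and 6.63 ± 0.01 in wt), a 1.97-fold higher signal. In bulk samples fewer cells of a type and less RNA per cell cannot be told apart.

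Ctnnd2 was at 10.39 and 10.44 on the cKO arrays, against 11.37 and 11.48 on the wt arrays, far above the limit on all 4. The means were 10.42 ± 0.04 in cKO and 11.42 ± 0.08 in wt, a difference of -1.01 and a 2.01-fold lower signal. The nearest arrays of the 2 genotypes were 0.96 apart for Ctnnd1, with ranges of 0.02 among cKO and 0.01 among wt arrays. For Ctnnd2 the gap was -0.93, with ranges of 0.06 and 0.11.

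Among the 9894 tested genes 85 had a higher difference than Ctnnd1, and 18 had a lower one than Ctnnd2. Within litters the pair behaved alike. In litter 1 Ctnnd1 differed by 0.97 and Ctnnd2 by -0.98, and in litter 2 by 0.98 and -1.03. The genotypes did not overlap for these 2 of the 4 tested members, and over all tested probe sets they did not overlap in 40.1% (16.4% higher and 23.7% lower in cKO). Since the members were known by this contrast, nothing is read from that count.

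**Figure D1:**
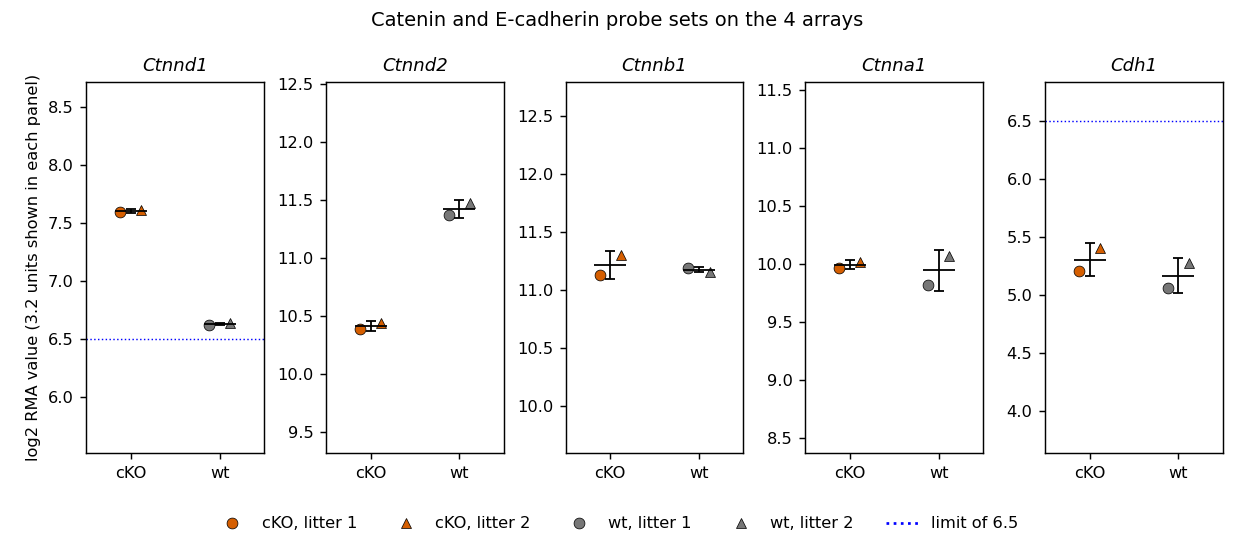
Log2 RMA values of the 5 genes on each array, with 3.2 log2 units in every panel. Orange is cKO and grey wt, circles are litter 1 and triangles litter 2, where a bar marks the group mean and its whisker the SD (n = 2); the dotted line is the limit of 6.5. Ctnnd1 is at 7.60 and 7.62 in cKO and at 6.63 and 6.64 in wt, Ctnnd2 lies the other way, and all Cdh1 values are below the limit.

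The genes of beta-catenin, which binds cadherins at the other site, and of alpha-catenin, its link to actin, were close to level. Ctnnb1 was at 11.13 and 11.30 in cKO, against 11.19 and 11.16 in wt, so that both wt values fell between the cKO values. The difference was 0.040, less than the SD of the cKO arrays (0.12). Ctnna1 was at 9.96 and 10.02 in cKO, against 9.82 and 10.07 in wt, and here the cKO values fell between the wt values. Its difference was 0.046, with an SD of 0.18 in wt. For both genes the sign of the difference changed between litters, with -0.0605 and 0.14 for Ctnnb1 and with 0.143 and -0.0511 for Ctnna1 in litters 1 and 2.

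E-cadherin itself stayed below the limit. Cdh1 was at 5.21 and 5.41 in cKO, against 5.06 and 5.28 in wt, and the genotypes overlapped. A difference of 0.14 at this level was within the SD of each group (0.14 in cKO and 0.15 in wt) and no fold is given. Cdh1 took no part in the tests, and values this low do not show that the transcript was absent.

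A comparison that played no part in the choice of the genes was that between litters. In limma with genotype and litter as terms, litter 2 minus litter 1 was 0.02 for Ctnnd1 (standard error 0.09, adjusted p = 0.97), 0.08 for Ctnnd2 (0.09, adjusted p = 0.808), 0.07 for Ctnnb1 (0.10, adjusted p = 0.863) and 0.15 for Ctnna1 (0.10, adjusted p = 0.725). None of the 4 passed, and 0.0265% of all tested probe sets did. Those were 5 probe sets, namely Xist, Kdm5d, Eif2s3y, Uty and 1 without a listed gene, all named after their values were seen. The labels call all mice male, whereas Xist was at 12.78 (cKO) and 12.75 (wt) in litter 1 and at 5.19 (cKO) and 5.15 (wt) in litter 2. Litter and this split cannot be told apart, and each genotype held 1 array of each kind.

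**Figure D2:**
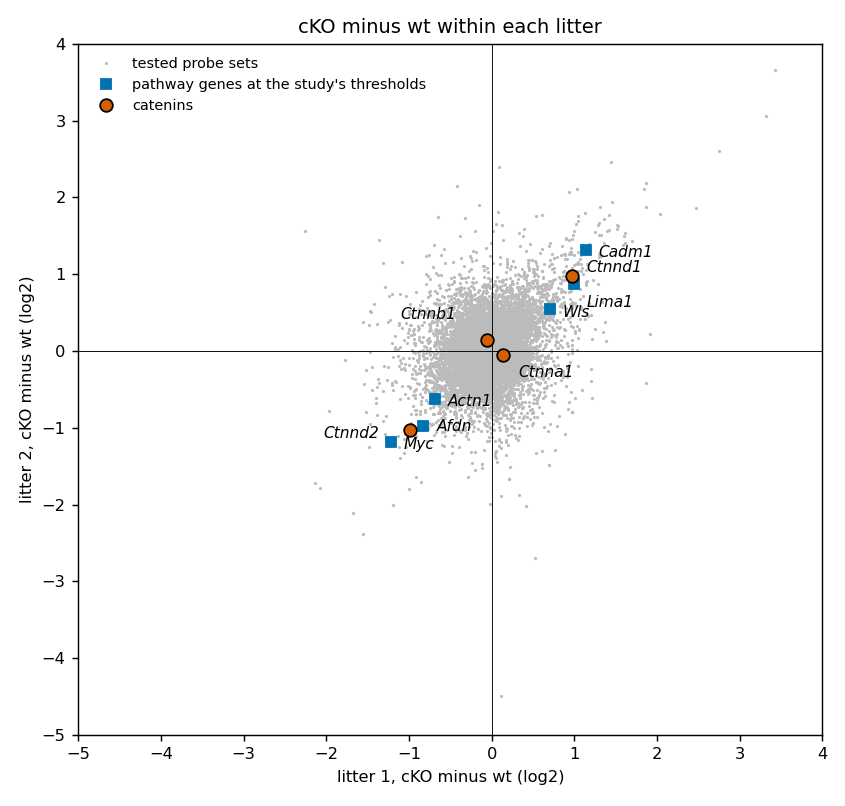
Difference cKO minus wt (log2) in litter 1 (x axis) and in litter 2 (y axis) for each of 18889 tested probe sets (grey), the 4 tested catenins (orange circles) and 6 pathway genes that passed the study's thresholds (blue squares). Ctnnd1 lies at 0.97 and 0.98 and Ctnnd2 at -0.98 and -1.03, while Ctnnb1 and Ctnna1 lie near the centre.

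The probe set of Runx3 does not check the labels, because no source used here says whether it covers the deleted part. It was at 11.47 and 11.45 in cKO, against 11.37 and 11.51 in wt. Among markers of the sorted cells, Itgax (CD11c) was at 13.12 and 13.12 in cKO and 13.01 and 12.99 in wt, and Esam was at 10.60 and 10.64 in cKO and 10.42 and 10.10 in wt. All 12 markers of Esam-high DC listed here were above the limit, 7 higher and 5 lower in cKO by sign. Without overlap between genotypes 6 were higher and 3 lower, beside 16.4% and 23.7% of all tested probe sets. The 3 lower ones were Irf4 (difference -0.26), Zbtb46 (-0.28) and Clec4a4 (-0.19). Array medians ran between 6.58 and 6.62.

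The genes around the catenins were read from 13 lists of junction and Wnt pathway genes, in which 227 of 236 genes had a probe set of their own and 111 reached the limit. Of these 111, 6 passed the study's thresholds (at least 1.5-fold either way, and p no higher than 0.05 before adjustment in the one-way test named in the methods), 3 higher and 3 lower in cKO. Over all 9894 genes 1.85% passed, 1.39% higher and 0.455% lower, and over all probe sets 1.41%, 0.9% higher and 0.514% lower. The median difference of the 111 genes was -0.03, beside -0.02 over all tested probe sets. None of the 111 passed limma's adjusted threshold, nor did any of the 18889 probe sets (0%). At an unadjusted limma p under 0.05 there were 11 higher and 10 lower genes, beside 9.38% of all probe sets (4.57% higher and 4.81% lower). Of the higher genes, Src, Fzd1 and Cdh5 were tested only because they reached the limit in cKO, so the count of higher genes depends in part on that limit. The 6 genes were Lima1, Cadm1 and Wls, which rose, and Myc, Afdn and Actn1, which fell. Results for Myc and Cadm1 were known when the lists were written.

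**Figure D3:**
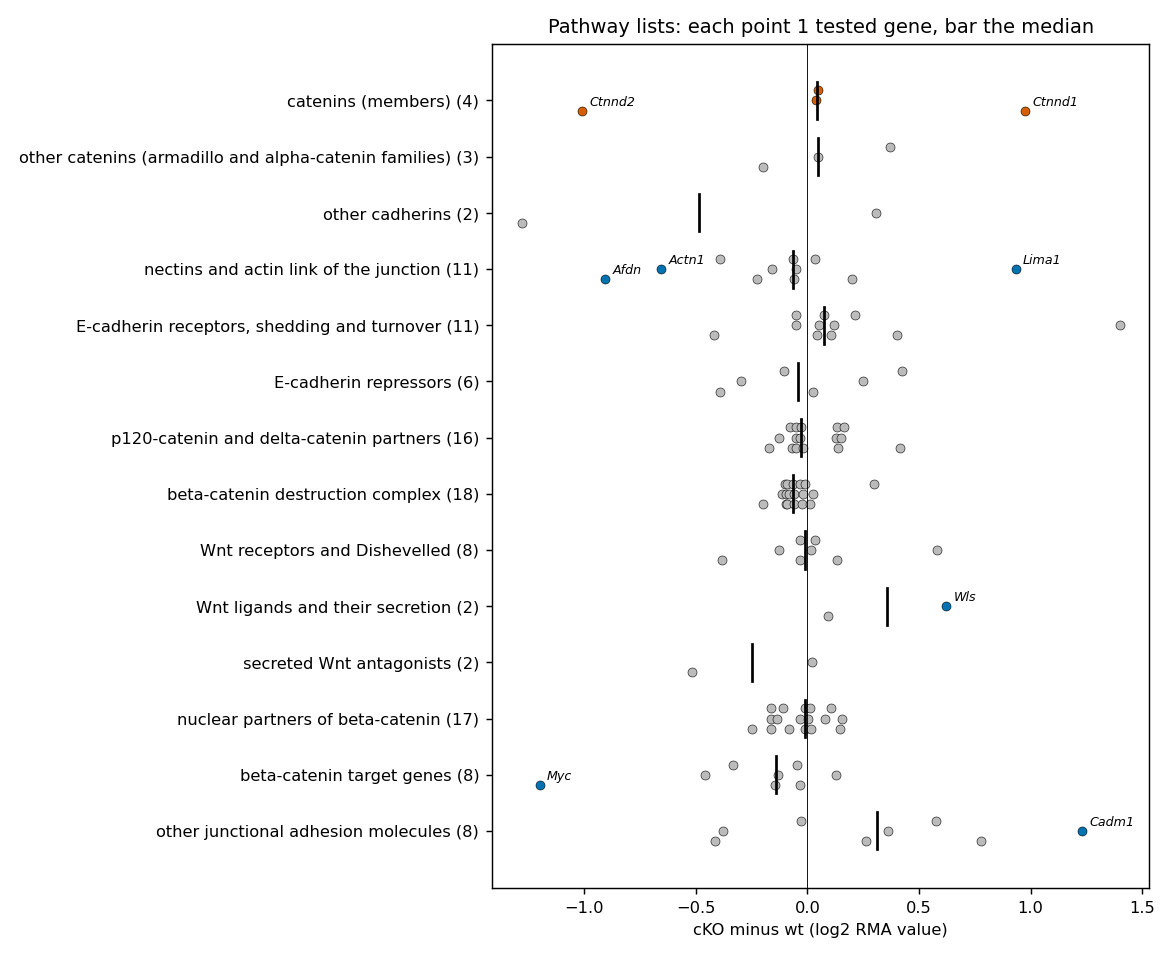
Difference cKO minus wt (log2) of every tested gene in each list, with the number tested in brackets and the list median as a bar. Orange points are the catenins under study, blue points passed the study's thresholds and grey points did not. The pathway genes past the thresholds are Lima1 at 0.93, Afdn at -0.91, Actn1 at -0.66, Wls at 0.62, Myc at -1.20 and Cadm1 at 1.23.

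Of the 6 genes, 3 came from 1 list, the nectins and proteins that tie the junction to actin. There 1 of 11 tested members passed as higher, 2 passed as lower and 8 did not pass. Lima1 encodes EPLIN, which couples alpha-catenin to actin filaments. It was at 8.31 and 8.24 in cKO, against 7.32 and 7.36 in wt, a 1.91-fold rise (difference 0.93, standard error 0.09, limma adjusted p = 0.159). The genotypes did not overlap, and the gap was many times the distance between replicates.

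Afdn encodes afadin, which couples nectins, the other adhesion receptors of the adherens junction, to actin. It was at 9.17 and 9.29 in cKO, against 10.001 and 10.27 in wt, a difference of -0.91 (standard error 0.13, limma adjusted p = 0.223). Actn1, the alpha-actinin gene whose product cross-links actin filaments and binds alpha-catenin, was at 10.54 and 10.42 in cKO, against 11.22 and 11.05 in wt (difference -0.66, standard error 0.11, limma adjusted p = 0.248). With the litter as a block Lima1 and Actn1 still passed the study's thresholds and Afdn did not. In that fit 0.715% of all probe sets passed, 0.487% higher and 0.228% lower. Vasp, which promotes actin filament growth, differed by -0.39 and Vcl, the vinculin gene, by 0.20, and neither passed. The nectin gene Nectin1 differed by -0.16, and Nectin2 and Nectin3 were below the limit on all arrays. The median of the list was -0.06.

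Other members of the catenin families were few. Of 9 listed, 3 reached the limit and none passed. Jup encodes plakoglobin, the closest relative of beta-catenin, and was at 8.74 and 9.01 in cKO, against 8.35 and 8.66 in wt (difference 0.37, standard error 0.16, limma adjusted p = 0.601). Pkp3 and Pkp4, of the same armadillo family as Ctnnd1 and Ctnnd2, differed by -0.20 and 0.05. Pkp4 was at 8.15 and 8.07 in cKO, against 8.13 and 7.99 in wt. Arvcf, a close relative of p120-catenin, was below the limit, as were the neural and testis alpha-catenins Ctnna2 and Ctnna3.

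Among 28 other cadherin and desmosomal cadherin genes, 26 had a probe set and 24 of these were below the limit on all arrays, Cdh2 (N-cadherin) and Cdh3 (P-cadherin) included. The 2 that reached it were Cdh17 and Cdh5. Cdh17, the liver-intestine cadherin, whose short tail lacks the catenin-binding region, was at 7.59 and 6.99 in cKO, against 8.44 and 8.69 in wt. The difference was -1.28, with an SD of 0.42 in cKO, and it passed neither the study's thresholds nor the adjusted test (standard error 0.24, limma adjusted p = 0.296). Cdh5, the endothelial VE-cadherin, was at 6.62 and 6.84 in cKO and under the limit, at 6.40 and 6.45, in wt (difference 0.31, limma adjusted p = 0.525).

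**Figure D4:**
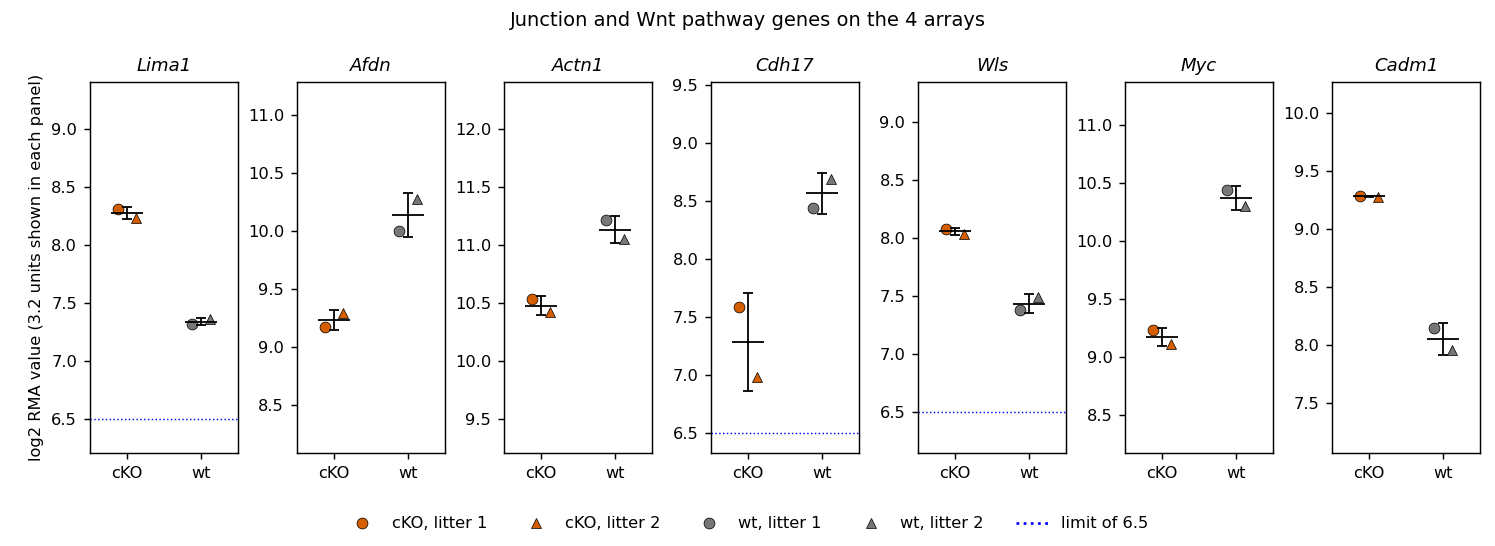
Log2 RMA values of 7 junction and Wnt pathway genes on each array, with 3.2 log2 units in every panel. Orange is cKO and grey wt, circles are litter 1 and triangles litter 2, where a bar marks the group mean and its whisker the SD (n = 2); the dotted line is the limit of 6.5. Lima1 is at 8.31 and 8.24 in cKO and 7.32 and 7.36 in wt, Afdn and Actn1 lie the other way, and the cKO arrays of Cdh17 are spread between 6.99 and 7.59.

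The genes of proteins that receive, cut or silence E-cadherin mostly reached the limit on at least 1 array, although Cdh1 did not. Of 11 tested receptors, sheddases and turnover genes none passed (8 higher and 3 lower by sign, median 0.075). Itgae, the integrin chain that pairs with Itgb7 to bind E-cadherin, was at 7.31 and 6.77 in cKO, against 6.65 and 6.63 in wt, and Itgb7 was at 9.56 and 9.68 in cKO, against 10.06 and 10.02 in wt (differences 0.40 and -0.42). The other E-cadherin receptor gene listed, Klrg1, was below the limit. The protease gene Mmp14 was at 8.88 and 8.22 in cKO, against 7.63 and 6.68 in wt, and its difference of 1.40 had a standard error of 0.41. Among 6 tested repressors of Cdh1 none passed. Tcf4 differed by 0.42, Zeb2 by 0.25, Snai1 by -0.30 and Klf8 by -0.39.

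Partners of p120-catenin and delta-catenin showed no gene past the thresholds in 16 tested (6 higher and 10 lower by sign, median -0.03). These include the small GTPases that p120-catenin regulates, and Cdc42 was at 13.43 and 13.38 in cKO, against 13.46 and 13.50 in wt. The tyrosine kinase gene Src, whose product phosphorylates p120-catenin, was at 6.66 and 6.51 in cKO and below the limit, at 6.17 and 6.17, in wt (difference 0.41, limma adjusted p = 0.369). Erbin, whose product binds delta-catenin, differed by 0.13.

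The Wnt side gave 2 genes past the thresholds. Wls, which carries Wnt proteins to the cell surface for secretion, was at 8.08 and 8.03 in cKO, against 7.38 and 7.49 in wt, a 1.54-fold rise just above the threshold (difference 0.62, standard error 0.09, limma adjusted p = 0.223), which it did not pass with the litter as a block. Of 25 genes in its list, 23 were below the limit on all arrays and the other one measured was Wnt4, at 7.24 and 7.26 in cKO and 6.95 and 7.37 in wt. Of 14 secreted Wnt antagonists 12 were below it.

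Of 8 tested receptor and Dishevelled genes none passed. Fzd1 was at 6.66 and 6.95 in cKO and below the limit, at 6.18 and 6.27, in wt, and Dvl2 was at 7.31 and 7.31 in cKO, against 7.66 and 7.73 in wt (differences 0.58 and -0.38). The list of the destruction complex, which holds beta-catenin down, and of its regulators was measured almost in full (18 of 20). It also holds Tnks, Tnks2, Rnf146, Siah1a and Siah1b, so a count by sign does not measure the activity of the complex. By sign 15 genes were lower and 3 higher, no gene passed, and the median was -0.06. Apc, its scaffold, was at 10.03 and 10.09 in cKO, against 9.76 and 9.76 in wt, and differed by 0.30 (standard error 0.08, limma adjusted p = 0.441), while the second scaffold gene Axin1 differed by -0.12.

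Nuclear partners of beta-catenin likewise held no gene past the thresholds in 17 tested, with differences between -0.25 (Hdac1) and 0.15 (Ctbp2). Lef1 and Tcf7l1 were below the limit, and Tcf7 had no probe set of its own. Of 26 listed target genes 8 reached the limit. Axin2, Lgr5, Nkd1 and Sp5, which report beta-catenin activity in many tissues, were among the 16 below it. Myc, the only target past the thresholds, was at 9.23 and 9.11 in cKO, against 10.44 and 10.30 in wt (difference -1.20, standard error 0.10, limma adjusted p = 0.158). Myc answers to many other pathways as well. Birc5 and the cyclin gene Ccnd1 differed by -0.46 and -0.33, and Cd44 by 0.13, and none of these passed.

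Among the other adhesion molecules of cell contacts Cadm1, which is also a marker of the cDC1 subset, was the 1 gene of 8 tested that passed. It was at 9.29 and 9.28 in cKO, against 8.15 and 7.96 in wt (difference 1.23, standard error 0.10, limma adjusted p = 0.158). F11r, the gene of the junctional adhesion molecule JAM-A, was at 9.07 and 8.63 in cKO, against 8.35 and 7.79 in wt, and the claudin gene Cldn1 at 7.21 and 7.44 in cKO, against 6.68 and 6.82 in wt (differences 0.78 and 0.58). Alcam differed by -0.42. None of these 3 passed.

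Some markers of other myeloid cells and DC differed with genotype, although a sort on CD11c, MHC class II, Esam, CD4 and CD8 can leave out CD8+ cDC1 and pDC with low CD11c; the labels do not give the gates. Over all 9894 genes 1.39% passed the study's thresholds as higher in cKO, and over all probe sets 0.487% did with the litter as a block. Of 10 tested cDC1 markers 7 rose past the study's thresholds (3 with the litter as a block), and the median difference was 1.05. The cDC1 factor gene Batf3 and Wdfy4, which cDC1 need for cross-presentation, lay the other way at -0.29 each, with no overlap between genotypes, and neither passed. The summed linear signal (2 to the power of each log2 value) of these markers was 24281.5 and 25542 in cKO, against 16434.5 and 15656 in wt. Macrophage markers had 3 of 12 past the thresholds, all higher (1 with the block, median 0.75). The sums over the 13 macrophage markers with a probe set were 15112 and 16602 in cKO and 9252 and 11706 in wt. All 6 tested markers of Esam-low DC and monocytes were higher by sign, and 3 passed (3 with the block, median 0.85). Ccr2, 1 of those 3, reached the limit in cKO only (6.86 and 6.67, against 6.18 and 6.03 in wt). Gfi1 (difference -0.08) and Cd14 (0.21) stayed below it and were not counted. The count by sign thus depends in part on that limit. The sums over the 8 genes of this list with a probe set were 11726 and 11015 in cKO and 7209 and 6463 in wt. Of 7 pDC markers 6 were higher by sign and 1 passed, Cox6a2 (1 with the block, median 0.42). The pDC sums were 4427 and 4473 in cKO and 3240 and 2784 in wt. The earlier results for these markers were known when the lists were written.

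The part of these markers in the values of Ctnnd1 and Ctnnd2 was not tested. Markers of Esam-high DC had a median of 0.03, with 1 of 12 past the thresholds (Itgam) and 0 with the block. For the cell types in which cadherins and delta-catenin are best known, most markers were low: 6 of 7 epithelial markers (Krt8, Krt18, Krt19, Cldn7, Esrp1 and Grhl2) and 5 of 6 neuronal markers (Rbfox3, Map2, Snap25, Syt1 and Tubb3) were below the limit on all arrays. Epcam reached it, at 6.79 and 6.91 in cKO, against 6.95 and 7.50 in wt (difference -0.38). So did the neuronal marker Dlg4 (difference -0.07), and neither passed. The part of such cells in the values was not tested either. The epithelial sum was 333 and 347 in cKO, against 355 and 392 in wt, and the neuronal sum 302 and 303 in cKO, against 288 and 327 in wt. All 7 neutrophil markers and every erythroid and platelet marker with a probe set (4 and 3) were below the limit too. B cell, T cell and endothelial lists had no gene past the thresholds in 4, 3 and 3 tested, nor did the 1 tested NK cell marker, Nkg7 (difference 0.76). Nkg7 was tested only because it reached the limit in cKO replicate 1 (6.81).

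**Figure D5:**
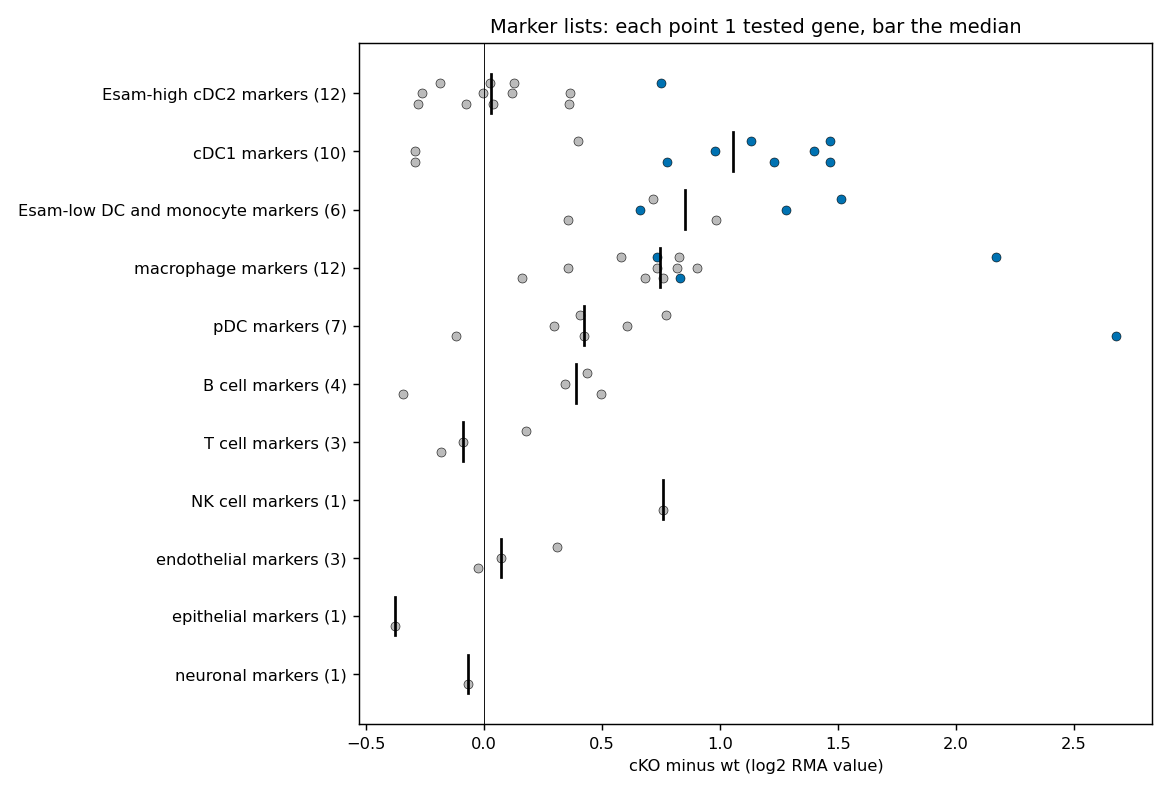
Difference cKO minus wt (log2) of every tested marker in each list, with the number tested in brackets and the list median as a bar. Blue points passed the study's thresholds and grey points did not; neutrophil, erythroid and platelet markers are absent because none reached the limit. The cDC1 list has a median of 1.05 and the list of Esam-high DC one of 0.03.

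The genes with profiles most like those of the 2 relatives were found over the 4 arrays, as the smallest root mean square distance between profiles that were each centred on their own mean. Nearest to Ctnnd1 were Dock1, an activator of Rac (distance 0.032), Lima1 (0.041), Tlr3, a double-stranded RNA sensor gene that is also 1 of the cDC1 markers that rose (0.047), the prostaglandin receptor gene Ptger3 (0.050) and Mpeg1, the perforin-2 gene (0.051). Dock1 was at 7.91 and 7.94 in cKO, against 6.97 and 6.89 in wt. Nearest to Ctnnd2 were the calcium-binding protein gene S100a6 (0.018), the kinase gene Stk32c (0.038), 2900026A02Rik (0.079), Afdn (0.080) and Mical2, an actin-oxidising enzyme gene (0.095). S100a6 was at 8.35 and 8.46 in cKO, against 9.35 and 9.48 in wt. Within a distance of 0.1 lay 24 tested genes for Ctnnd1 and 6 for Ctnnd2. With 4 arrays such likeness is a description.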

How the data were processed

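The authors processed the 4 arrays in Partek by RMA with GC correction, and the deposited values are log2 signals per probe set. Versions are missing from the submitters' processing notes, which list mm9 as the build. All 4 columns belong to the samples by name. Probe sets took their genes from the platform annotation (21789 with 1 symbol, 1621 with several, 11989 not listed). Genes were matched to the lists through gene IDs of RefSeq (GRCm38.p6), or else by symbol, and the brightest probe set stood for a gene.

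Following the study's methods, probe sets with a log2 value of at least 6.5 on at least 1 array were tested (18889). limma (version 3.58.1, R 4.3.3; lmFit and eBayes, two-sided, Benjamini-Hochberg over all 18889, threshold 0.05) was the main test, beside the methods' one-way test with its thresholds. The mice are separate animals, and 2 arrays per group limit the precision. The labels place the replicate numbers in litters, and deviations from group means correlated within litters (r = 0.27, across probe sets). The litter was a block in an alternative. Other alternatives were rescaling, filters, 1 probe set per gene and leaving out each array. Background or detection values were not analysed here. The fits were also run on simulated data with independent arrays. Those data lack the correlation within litters, and nothing is read from them here.

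The members, lists and rules were chosen with earlier results of these data known. Named genes are the 5 members, in each list up to 4 genes with the smallest unadjusted limma p and up to 2 in the opposite direction, and the 5 nearest profiles of Ctnnd1 and of Ctnnd2. Further list members are named, after their values were seen, for their role or for lying below the limit.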

Additional observations from a re-analysis of the deposited data

Results flagged for a closer look

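Ctnnb1 and Ctnna1 drew attention because the sign of cKO minus wt was opposite in the 2 litters. Ctnnb1 differed by -0.0605 in litter 1 and by 0.14 in litter 2, and Ctnna1 by 0.143 in litter 1 and -0.0511 in litter 2. Each litter holds 1 array per genotype, so this difference between litters was not tested, and all 4 values are smaller than 0.163, the median distance between the 2 wt arrays over tested probe sets. The same median for the 2 cKO arrays was 0.096, which 0.14 and 0.143 exceed.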

How the results depend on the processing

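Ctnnd1 and Ctnnd2 kept their directions under every alternative run. The genotypes did not overlap for either gene, so leaving out 1 array could not reverse a sign. The pair was chosen by this contrast, and nothing is read from its kept directions. With arrays left out in turn, the Ctnnd1 difference ran from 0.96 to 0.99 and that of Ctnnd2 from -1.06 to -0.95, and with each array centred on its median Ctnnd1 was at 0.96. Ctnnb1 ran from -0.05 to 0.13, Ctnna1 from -0.08 to 0.17 and Cdh1 from 0.03 to 0.25. The means over all probe sets equal the main values because each gene has 1. The litter as a replicate block leaves every difference as it is. At limma's adjusted threshold 0 probe sets passed, against 1 with quantile normalization (Plcb4), 2 with an intensity trend (Plcb4 and 1 without a listed gene) and 42 with 1 probe set per gene, Lima1, Myc and Cadm1 among them. At the study's thresholds 267 passed, 135 with the replicate block, 493 with limma's unadjusted p, and from 113 (without cKO replicate 2) to 281 with an array left out. Of the 6 pathway genes, 4 passed with the block, and from 1 to 4 pathway genes without 1 array, in settings added after the data were seen: 1 without cKO replicate 1, 2 without cKO replicate 2 (Lima1 and 1 gene outside the 6), 2 without wt replicate 1 and 4 without wt replicate 2. Lima1 passed in all 4 of these settings, Cadm1 in 2, Myc and Wls in 1 and Afdn and Actn1 in 0, with differences of -1.04 to -0.77 for Afdn and -0.74 to -0.57 for Actn1. The test then has fewer residual degrees of freedom, and the cause was not tested. The litter comparison gave 4 or 5 probe sets throughout. Differences near the limit of 6.5, such as those of Ctnnd1, Fzd1 and Src in wt, are limited by low signal.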
